A study of Mus musculus with 9 samples.

Results

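The transcripts of 10 chemokine ligands were measured by RNA sequencing in dendritic cells sorted from mouse spleen. The ligands were Xcl1, Ccl22, Ccl17, Ccl5, Cxcl9, Cxcl16, Ccl3, Ccl4, Ccl6 and Ccl9, a named set from the chemokine family found by gene symbol, and 10 of 10 were among the 14862 genes of the deposited expression table. All cells came from C57Bl/6 mice 8 to 12 weeks old, for which the labels give no treatment and no genetic change. There were 3 groups of 3 libraries. The first group was cDC1, type 1 conventional dendritic cells, known for passing antigen of dead cells to CD8 T cells. The second was cDC2, type 2 conventional dendritic cells, known for presenting antigen to CD4 T cells. The third was a subset labelled mcDC, a name that the labels do not spell out. The sources used here do not give the markers of the sorts, nor do they say whether libraries of a subset came from separate mice, and p-values therefore rest on a spread between libraries that may be technical.

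Chemokines are small secreted proteins that bind G protein-coupled receptors on leukocytes and direct where those cells move. Dendritic cells use them to draw in the cells they are about to instruct or be helped by. XCL1 acts on XCR1, CCL22 and CCL17 act on CCR4, CXCL9 acts on CXCR3, CXCL16 acts on CXCR6, CCL3 and CCL5 act on CCR1 among others, and CCL6 and CCL9 of rodents also act on CCR1. In the spleen, XCL1 is classically made by NK cells and activated CD8 T cells, and its receptor is carried by cDC1.

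Levels are in RPKM, which divides reads by the gene's length in kilobases and by the library's total, so levels of different genes can be set side by side. The libraries held 5.14 to 12.4 M recovered reads, the fewest in mcDC, and 1 read on 1 kb amounted to between 0.0805 and 0.195 RPKM. mcDC replicate 3 stood apart as the shallowest library, with 12.3% of genes at 0, and results that rest on it are also given without it. The labelled subsets were checked against lists of marker genes by their summed RPKM. The 8 cDC1 markers summed to 1681 to 2042 RPKM in cDC1, 204 to 253 in cDC2 and 433 to 879.8 in mcDC. The 8 cDC2 markers summed to 37.8 to 114 RPKM in cDC1, 646 to 657 in cDC2 and 287 to 486 in mcDC. Both sums in mcDC thus lay between those of cDC1 and cDC2, while the means of Batf3, Esam and Tbx21 were highest in mcDC. All 5 shared dendritic cell markers were above 0 in every library.

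Several of the ligands are neighbours in the genome. In the RefSeq annotation of GRCm38.p6, Ccl22 and Ccl17 lie on chromosome 8 with Cx3cl1 as the coding gene between them, and Ccl5, Ccl9, Ccl6, Ccl3 and Ccl4 are successive coding genes on chromosome 11. Xcl1 lies on chromosome 1, Cxcl9 on chromosome 5 and Cxcl16 on chromosome 11. The deposited values were made on the older build mm8, so no coordinates of the measured genes are given. RefSeq promoter sequences of GRCm38.p6 were found for 7 of the 10 ligands. The 250 bases before the annotated gene start, 5' to 3' on the strand of the gene, are shown for Ccl22 (chr8:94745434-94745683, plus strand) and Ccl17 (chr8:94810203-94810452, plus strand), near neighbours whose levels differed in cDC1, and for Ccl9 (chr11:83578637-83578886, minus strand) and Ccl6 (chr11:83593088-83593337, minus strand), neighbours whose levels followed each other. Capitals mark matches to the motifs described below.
Ccl22: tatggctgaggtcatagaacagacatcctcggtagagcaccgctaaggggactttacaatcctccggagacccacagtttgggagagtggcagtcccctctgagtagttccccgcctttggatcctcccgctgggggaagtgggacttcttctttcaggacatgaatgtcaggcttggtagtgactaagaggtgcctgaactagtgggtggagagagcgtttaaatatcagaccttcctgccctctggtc
Ccl17: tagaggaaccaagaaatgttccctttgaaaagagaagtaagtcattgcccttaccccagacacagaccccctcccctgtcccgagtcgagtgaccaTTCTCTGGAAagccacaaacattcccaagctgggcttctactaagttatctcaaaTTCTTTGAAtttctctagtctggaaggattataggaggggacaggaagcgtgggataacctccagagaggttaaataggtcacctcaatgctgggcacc
Ccl9: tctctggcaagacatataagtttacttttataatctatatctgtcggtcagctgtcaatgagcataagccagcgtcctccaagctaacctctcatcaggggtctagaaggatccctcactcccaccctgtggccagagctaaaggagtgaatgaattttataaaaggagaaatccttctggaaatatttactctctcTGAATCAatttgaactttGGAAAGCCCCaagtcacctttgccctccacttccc
Ccl6: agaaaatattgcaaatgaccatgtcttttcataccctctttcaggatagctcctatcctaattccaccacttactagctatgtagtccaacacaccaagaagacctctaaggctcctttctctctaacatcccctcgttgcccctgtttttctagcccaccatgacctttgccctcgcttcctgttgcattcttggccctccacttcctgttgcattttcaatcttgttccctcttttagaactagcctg

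Those windows were searched on both strands for 6 motifs. The NF-kB motif, GGG and TTCC with 3 bases between them, was found in 4.65% of 32536 mouse promoter windows of the same length, and among the ligands in Ccl9, read on the opposite strand, as GGAAAGCCCC beginning 35 bases before the start. TGANTCA, named for AP-1, was in 6.73% of windows and was found in Ccl9 as TGAATCA, 53 bases before the start. The STAT motifs, TTC and GAA with 3 or 4 bases between them, were in 7.04% and 5.89% of windows and were both found in Ccl17, as TTCTTTGAA and TTCTCTGGAA, 99 and 154 bases before the start. The ETS-IRF motif, GGAA and GAAA with 2 bases between them (2.31% of windows), and the interferon-response motif, GAAA and GAAA with 2 bases between them (2.98%), matched 0 of the 7 windows. The matches did not overlap, and they describe letters in these windows and not binding.

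Ccl5, a ligand of CCR1 and CCR3 that attracts T cells and monocytes, was the most abundant of the 10 in all 3 subsets. It stood at 386, 436 and 447 RPKM in cDC1 replicates 1, 2 and 3. In cDC2 it stood at 508, 240.1 and 242 RPKM, and in mcDC at 451, 446 and 731. The groups overlapped in each comparison, cDC2 replicate 1 was well above the other cDC2 libraries, and mcDC replicate 3 was the highest of all 9. The log2 fold change was 0.45 for cDC1 against cDC2 (95% interval -0.23 to 1.12, limma adjusted p = 0.38), 0.32 for mcDC against cDC1 (-0.35 to 1.0, adjusted p = 0.54) and 0.77 for mcDC against cDC2 (0.09 to 1.44, adjusted p = 0.23). Fold changes throughout are differences of log2(RPKM + 1), which understate the ratio of genes at low RPKM. Without cDC2 replicate 1, both comparisons with cDC2 passed the threshold of adjusted p 0.05, at 0.80 (adjusted p = 0.046) for cDC1 and 1.13 (adjusted p = 0.043) for mcDC. Without mcDC replicate 3, mcDC against cDC2 gave 0.53 (adjusted p = 0.36) and mcDC against cDC1 gave 0.09 (adjusted p = 0.87).

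Ccl5 made up more of the summed RPKM of the 10 ligands than any other, 56.9% ± 0.872 (SD, n = 3) in cDC1, 51.7% ± 9.52 in cDC2 and 65.6% ± 3.80 in mcDC. The rest of the sum was made of different ligands in each subset. In cDC1 it was mostly Cxcl16 (14.3% ± 1.21), Cxcl9 (13.9% ± 2.0) and Ccl22 (7.91% ± 0.153). In cDC2 it was mostly Ccl6 (15.6% ± 6.88), Ccl3 (11.8% ± 0.635), Ccl9 (7.80% ± 3.17) and Ccl4 (6.13% ± 0.0872). In mcDC it was mostly Ccl3 (10.6% ± 5.53), Ccl4 (6.76% ± 1.24) and Xcl1 (6.19% ± 2.83). The sum itself was 743 ± 52.8 RPKM in cDC1, 621 ± 180.4 in cDC2 and 823 ± 213 in mcDC, with overlapping ranges of 686 to 790.4, 476 to 823 and 667 to 1065.

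**Figure D1:**
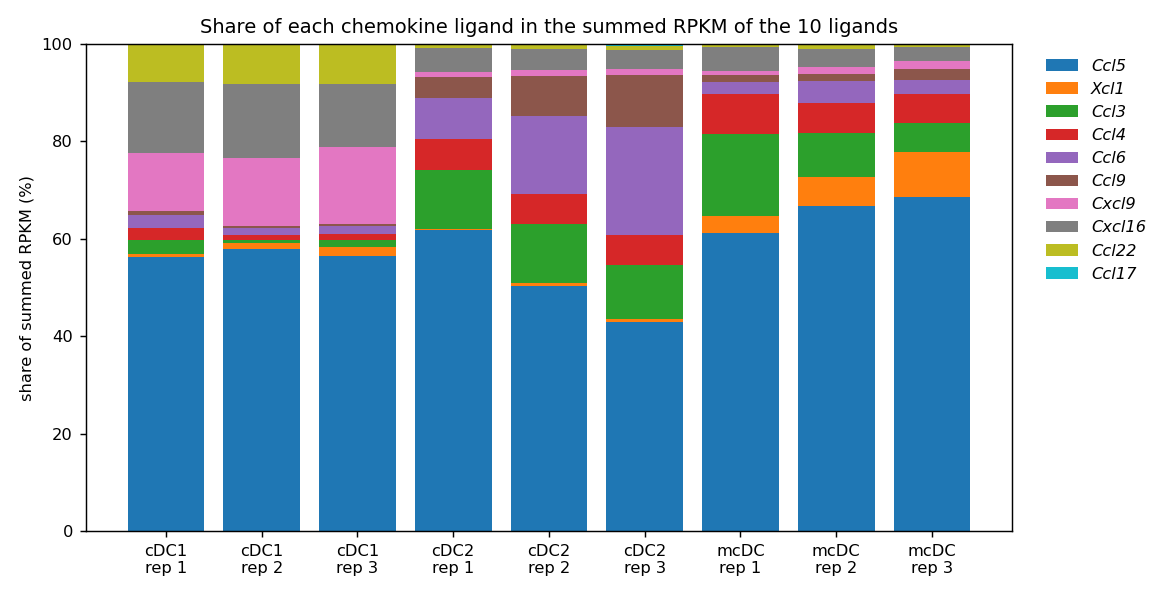
Stacked bars show, for each of the 9 libraries (x axis), the share of each ligand in the summed RPKM of the 10 ligands (y axis, %). Ccl5 holds 42.9% to 68.6% of each bar, and the rest is mostly Cxcl9, Cxcl16 and Ccl22 in cDC1, Ccl3, Ccl4, Ccl6 and Ccl9 in cDC2, and Ccl3, Ccl4 and Xcl1 in mcDC.

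In cDC1 the order after Ccl5 was Cxcl16 and Cxcl9, whose libraries overlapped, then Ccl22, which overlapped neither of its neighbours. Ccl6, Ccl4, Ccl3, Xcl1 and Ccl9 followed, each overlapping the next, and Ccl17 was last. In cDC2 the order after Ccl5 was Ccl6, Ccl3, Ccl9, Ccl4 and Cxcl16, each overlapping the next. Cxcl9, Ccl22, Xcl1 and Ccl17 came last, below Cxcl16 without overlap and again each overlapping the next. In mcDC the ligands from Ccl3 through Ccl4, Xcl1, Cxcl16, Ccl6, Ccl9 and Cxcl9 to Ccl22 each overlapped the next, and Ccl17 was at 0. The fall in level between neighbours was therefore within the spread of libraries for most of the mcDC order.

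Between the conventional subsets, cDC1 had more Ccl22, Cxcl9 and Cxcl16, whose receptors are carried by T cells, and cDC2 had more Ccl3, Ccl4, Ccl6 and Ccl9, inflammatory ligands that draw in myeloid cells and T cells. Of the 10 ligands, 7 passed the threshold, 3 higher in cDC1 and 4 lower, where 19.6% of the 11971 genes tested passed (8.85% higher and 10.7% lower in cDC1). The libraries did not overlap for 8 ligands, as for 46.1% of all genes tested. In mcDC against cDC1, 7 ligands passed, 4 higher in mcDC and 3 lower, where 15.4% of genes passed (9.53% higher and 5.88% lower), and 7 did not overlap, as for 30.5% of genes. In mcDC against cDC2, 3 passed, 1 higher in mcDC and 2 lower, where 3.66% of genes passed (2.06% higher and 1.6% lower), and 4 did not overlap, as for 21.6% of genes. The median log2 fold change of the 10 ligands was 0.20, 0.58 and 0.18 in these comparisons, beside -0.02, 0.09 and 0.06 over all genes tested. The comparisons share libraries, so they are not independent of each other. The ligands and the gene lists below were chosen with earlier results of these data known. Their counts beside the shares of all genes are therefore a description and not a test of the sets.

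**Figure D2:**
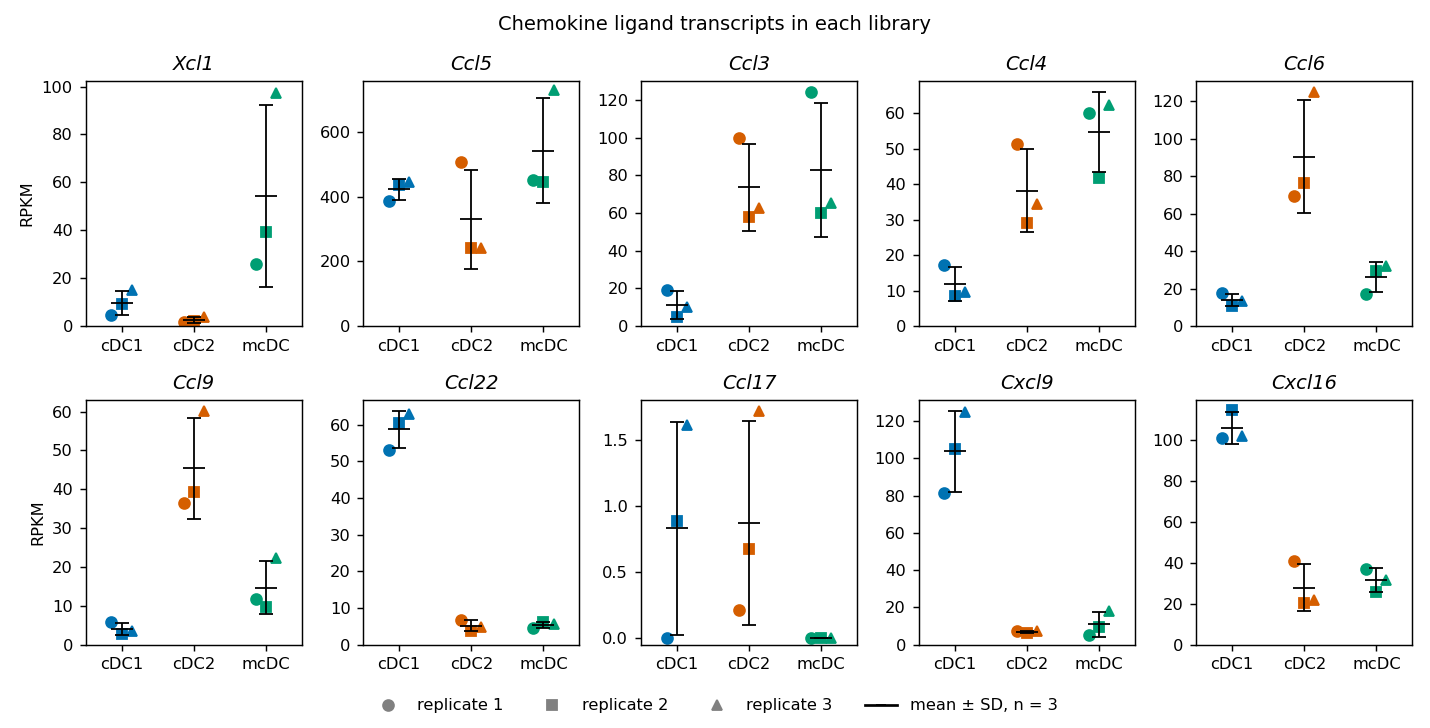
Each panel shows 1 ligand in RPKM (y axis, own linear scale per panel) in cDC1, cDC2 and mcDC (x axis). Symbols are single libraries, and bars are the mean ± SD of 3. Ccl22, Cxcl9 and Cxcl16 are high in cDC1, Ccl6 and Ccl9 in cDC2, Ccl3 and Ccl4 in both cDC2 and mcDC, and Xcl1 in mcDC, where replicate 3 reaches 97.5 RPKM.

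Xcl1 (Entrez gene 16963), the ligand of XCR1, was highest in mcDC. It stood at 25.9, 39.4 and 97.5 RPKM in mcDC replicates 1, 2 and 3, from 107, 110 and 252 reads. In cDC1 it stood at 4.70, 9.03 and 15.0 RPKM, from 26, 50 and 73 reads. In cDC2 it stood at 1.52, 2.25 and 3.84 RPKM, from 7, 13 and 24 reads. Every mcDC library was above every cDC1 library and every cDC1 library above every cDC2 library, and the spread within mcDC was wide. The means were 54.2 ± 38.1, 9.58 ± 5.17 and 2.53 ± 1.19 RPKM, and without mcDC replicate 3 the mcDC mean was 32.6.

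The log2 fold change of Xcl1 was 3.80 ± 0.50 (SE) for mcDC against cDC2 (limma adjusted p = 0.0048) and 2.29 ± 0.50 for mcDC against cDC1 (adjusted p = 0.014). Without mcDC replicate 3 these were 3.27 (adjusted p = 0.0053) and 1.76 (adjusted p = 0.018). The difference from cDC1 missed the threshold without cDC1 replicate 2, at an adjusted p of 0.052. For cDC1 against cDC2 the log2 fold change was 1.51 ± 0.50 with an adjusted p of 0.066, which did not pass. That last result depended on the fit, with adjusted p between 0.00013 and 0.28 over 19 alternatives, 7 of which passed, among them the fit without mcDC replicate 3 (0.015). The library titles fall into 3 runs of consecutive numbers, each with 1 library of every subset, and the replicate numbers follow these runs. Within runs 1, 2 and 3 the differences were 2.24, 2.01 and 2.62 for mcDC against cDC1 and 1.18, 1.63 and 1.72 for cDC1 against cDC2, so the order mcDC, cDC1, cDC2 held in each run.

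Markers of other cells that express Xcl1 were also present. NK cell markers, 10 of 12 listed being in the table and none at 0 in any library, summed to 85.7 to 154 RPKM in cDC1, 194 to 231 in cDC2 and 249 to 432 in mcDC. In mcDC replicates 1, 2 and 3 the sums were 249, 319 and 432 RPKM, the same order as Xcl1. In cDC1 they were 154, 85.7 and 128 RPKM and in cDC2 206, 194 and 231, which was not the order of Xcl1. That departure came from Klrd1, at 104, 31.9 and 38.5 RPKM in cDC1 and 174, 149.6 and 173 in cDC2. Summed without Klrd1, the list rose in the order of replicates 1, 2 and 3 in every subset, as Xcl1 did. The summed cDC1 markers in mcDC, at 433, 704 and 879.8 RPKM, also rose in the order of Xcl1. Irf8 (206, 404 and 493 RPKM) and Batf3 (143, 160 and 249) made most of these sums. Xcr1, Cd8a, Cadm1 and Itgae rose in that order too. Clec9a (46.6, 74.4 and 61.7 RPKM) and Tlr3 did not, being highest in mcDC replicate 2. Ncr1, the NKp46 receptor of NK cells, was at 21.4, 32.2 and 22.3 RPKM in mcDC and at 2.67 to 5.64 in the other 6 libraries. Nkg7, a cytotoxic granule protein, was at 18.1, 31.2 and 81.5 RPKM in mcDC, and at 4.95 to 27.1 elsewhere. Of the 10 NK cell markers, 4 were higher in mcDC than in cDC1 (9.53% of all genes tested) and 5 higher than in cDC2 (2.06% of all genes). At an unadjusted p of 0.05 these counts were 8 and 8, and with voom on the recovered reads 5 and 3, and 0 were lower in any of the 3. Their median log2 fold change was 1.18 and 1.58, beside 0.09 and 0.06 over all genes. The part of these markers in the Xcl1 result was not tested. Klrd1, which made most of the NK cell sum in cDC2, was at 149.6 to 174 RPKM there, 159 to 175 in mcDC and 31.9 to 104 in cDC1. T cell markers, 9 of 12 in the table and none at 0, overlapped between cDC1 (28.5 to 52.3 RPKM) and mcDC (32.3 to 42.3), with 18.6 to 30.1 in cDC2. Red pulp macrophage markers summed to 419, 523 and 794 RPKM in mcDC, against 117 to 161 in cDC1 and 191 to 226 in cDC2, and their part was not tested either. In sorted bulk samples, more cells of a type and more RNA per cell cannot be told apart.

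**Figure D3:**
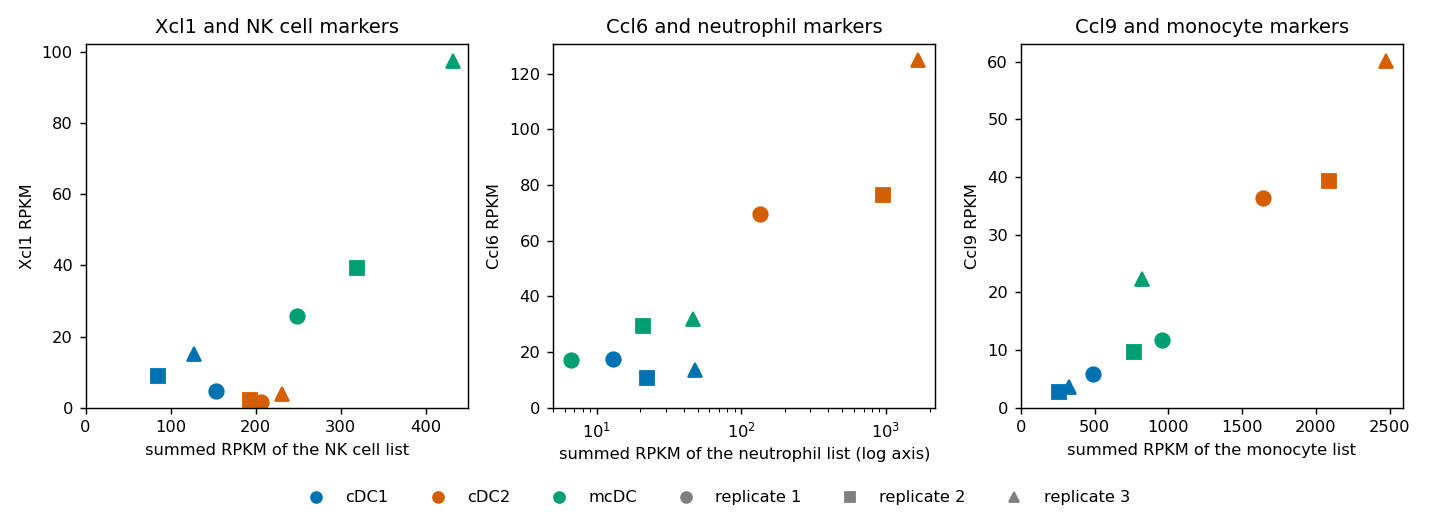
Points are the 9 libraries, coloured by subset and shaped by replicate. The panels plot Xcl1 against the summed NK cell markers, Ccl6 against the summed neutrophil markers (log axis) and Ccl9 against the summed monocyte markers, all in RPKM. The mcDC libraries reach 25.9 to 97.5 RPKM of Xcl1 at NK cell sums of 249 to 432, and the cDC2 libraries hold the highest Ccl6 and Ccl9 at the highest neutrophil and monocyte sums.

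Ccl22 (20299), which attracts CCR4-bearing T cells including regulatory T cells, was high in cDC1 and low in both other subsets. It stood at 53.1, 60.5 and 62.8 RPKM in cDC1, at 6.72, 3.78 and 4.70 in cDC2 and at 4.42, 6.15 and 5.58 in mcDC. The cDC1 libraries stood far above the rest, and the cDC2 and mcDC libraries overlapped. The mean of cDC1 was 11.6-fold that of cDC2 and 10.9-fold that of mcDC, and the adjusted p-values were 5.2e-06 and 1.4e-05. For mcDC against cDC2 the log2 fold change was 0.09 (95% interval -0.34 to 0.52, adjusted p = 0.85).

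Ccl17 (20295), the other CCR4 ligand, was barely detected although its gene lies close to Ccl22. The cDC1 libraries had 0, 5 and 8 reads of it (0, 0.882 and 1.61 RPKM) and the cDC2 libraries 1, 4 and 11 (0.211, 0.675 and 1.72 RPKM). All 3 mcDC libraries had 0 reads. Over the mcDC group, a count of 0 allows up to 3 reads, or 0.308 RPKM, counting error only. The pooled levels in cDC1 and cDC2 were 0.797 and 0.938 RPKM, but cDC1 replicate 1 also had 0 reads. The adjusted p-values of 0.96, 0.23 and 0.33 for cDC1 against cDC2, mcDC against cDC1 and mcDC against cDC2 did not pass. In cDC1, Ccl22 had 1059 to 1207 reads per library where Ccl17 had 0 to 8.

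Cxcl9 (17329), an interferon-gamma-induced chemokine that attracts CXCR3-bearing T cells, was also highest in cDC1. It stood at 81.6, 105 and 125 RPKM in cDC1 and at 7.33, 6.30 and 7.22 in cDC2. In mcDC it stood at 5.06, 9.34 and 18.2 RPKM. The cDC1 libraries did not overlap with either other group, and mcDC spread across the cDC2 range. The mean of cDC1 was 15.0-fold that of cDC2 (adjusted p = 8.2e-05) and 9.58-fold that of mcDC (adjusted p = 0.00032). Without mcDC replicate 3 the mcDC mean was 7.20 RPKM rather than 10.9, and the log2 fold change of mcDC against cDC1 was -3.71 rather than -3.28. For mcDC against cDC2 the log2 fold change was 0.42 (95% interval -0.36 to 1.21, adjusted p = 0.59), and -0.0 (adjusted p = 0.99) without mcDC replicate 3.

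Cxcl16 (66102), a membrane-anchored chemokine that ADAM proteases shed and that binds CXCR6, showed the same order with a smaller difference. It stood at 101, 115 and 102 RPKM in cDC1, at 41.1, 20.4 and 21.9 in cDC2 and at 37.2, 25.8 and 31.6 in mcDC. All cDC1 libraries were above all others, and cDC2 and mcDC overlapped. The mean of cDC1 was 3.80-fold that of cDC2 (adjusted p = 0.0004) and 3.35-fold that of mcDC (adjusted p = 0.0014), and the log2 fold change of mcDC against cDC2 was 0.23 (-0.32 to 0.78, adjusted p = 0.68). In the annotation Ccl5 overlaps Gm32650 (not analysed here), Cxcl16 overlaps Zmynd15, Ccl3 overlaps Ccl4 and Ccl6 overlaps E230016K23Rik. The kit kept strand, but the sources used here do not say whether counting used it, so reads of overlapping genes may be shared.

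Ccl3 (20302) and Ccl4 (20303), the inflammatory macrophage proteins MIP-1 alpha and beta, were low in cDC1 and high in both other subsets. Ccl3 stood at 19.2, 4.59 and 10.2 RPKM in cDC1, at 100, 58.0 and 62.7 in cDC2 and at 124, 60 and 65.1 in mcDC. Ccl4 stood at 17.2, 8.52 and 9.69 RPKM in cDC1, at 51.2, 28.9 and 34.3 in cDC2 and at 60.1, 41.6 and 62.4 in mcDC. For both genes, cDC1 lay below all other libraries, cDC2 and mcDC overlapped, and replicate 1 was the highest library of cDC1 and of cDC2. The mean of Ccl3 in cDC2 was 6.50-fold that of cDC1 (adjusted p = 0.002), and in mcDC 7.32-fold (adjusted p = 0.0024). For Ccl4 the means were 3.23-fold (adjusted p = 0.003) and 4.64-fold (adjusted p = 0.001) that of cDC1. In mcDC against cDC2 the log2 fold changes were 0.14 (-0.87 to 1.14, adjusted p = 0.91) and 0.53 (-0.11 to 1.17, adjusted p = 0.40).

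The ratio of Ccl3 to Ccl4 in RPKM was 1.95, 2.01 and 1.82 in the cDC2 libraries. It was 1.12, 0.539 and 1.05 in cDC1, below every cDC2 library, and 2.05, 1.44 and 1.04 in mcDC, which ran from the cDC1 range to above cDC2. These ratios were not tested.

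Ccl6 (20305) and Ccl9 (20308), rodent chemokines of myeloid cells that act on CCR1, were highest in cDC2. Ccl6 stood at 69.6, 76.4 and 125 RPKM in cDC2, at 17.5, 10.7 and 13.4 in cDC1 and at 17.2, 29.3 and 31.8 in mcDC. Ccl9 stood at 36.4, 39.4 and 60.2 RPKM in cDC2, at 5.80, 2.68 and 3.53 in cDC1 and at 11.8, 9.67 and 22.4 in mcDC. The cDC2 libraries were above all others for both genes, and mcDC lay above cDC1 without overlap for Ccl9 but with overlap for Ccl6. Against cDC1, the mean of cDC2 was 6.53-fold for Ccl6 (adjusted p = 0.0002) and 11.3-fold for Ccl9 (adjusted p = 0.00013).

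mcDC had less of both than cDC2, with log2 fold changes of -1.75 ± 0.29 (adjusted p = 0.011) for Ccl6 and -1.62 ± 0.33 (adjusted p = 0.029) for Ccl9. The Ccl9 difference did not pass in 6 of 19 alternatives, with adjusted p from 0.0074 to 0.13. These 6 were the fit of the pair alone (0.064) and those without cDC1 replicate 3 (0.056), cDC2 replicate 1 (0.057), cDC2 replicate 2 (0.097), cDC2 replicate 3 (0.13) or mcDC replicate 2 (0.093). Against cDC1, mcDC had more Ccl9, by 1.61 ± 0.33 (adjusted p = 0.01, and 0.052 without cDC1 replicate 2). The Ccl6 difference of 0.85 (95% interval 0.20 to 1.49) had an adjusted p of 0.08, and 0.023 without mcDC replicate 1. The ratio of Ccl6 to Ccl9 was 1.92, 1.94 and 2.08 in cDC2, 3.02, 3.98 and 3.78 in cDC1 and 1.46, 3.03 and 1.42 in mcDC.

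The summed neutrophil and monocyte markers were highest in cDC2 as well, while the summed red pulp macrophage markers were highest in mcDC. Of 11 red pulp macrophage markers tested, 7 were higher in mcDC than in cDC2 and 0 lower (2.06% and 1.6% of all genes). Adgre1, on that list, went the other way, at 87.6 to 95.7 RPKM in cDC2 and 45.1 to 64.4 in mcDC. Neutrophil markers, 11 of 12 in the table, summed to 135, 959 and 1662 RPKM in cDC2 replicates 1, 2 and 3, against 13 to 47.6 in cDC1 and 6.58 to 46.0 in mcDC. In cDC2 replicate 1, 2 of the 11 (Mpo and Elane) were at 0, and the granule proteins S100a8 and S100a9 were at 60.2 and 45.9 RPKM. Monocyte markers, 9 of 9 in the table with none at 0, summed to 1643, 2087 and 2478 RPKM in cDC2, 256 to 487 in cDC1 and 770 to 955 in mcDC. Of these 9, 8 were lower in cDC1 than in cDC2 (10.7% of all genes tested) and 4 lower in mcDC than in cDC2 (1.6% of all genes). The cDC2 library with the highest sums also had the most Ccl6 and Ccl9, and the one with the lowest sums had the least. From replicate 1 to replicate 3 of cDC2 the neutrophil sum rose from 135 to 1662 RPKM, and Ccl6 from 69.6 to 125. In cDC1 both ligands followed the order of the monocyte sums, but replicate 1, lowest in neutrophil markers, had the most of both. In mcDC, Ccl6 rose in the order of the neutrophil sums and Ccl9 did not, and neither followed the monocyte sums. The order of those monocyte sums came from Nr4a1, at 419, 145 and 149.7 RPKM in mcDC replicates 1, 2 and 3. Summed without Nr4a1, the monocyte list in mcDC rose in the order of Ccl6, which was not that of Ccl9. The part of these markers in the Ccl6 and Ccl9 results was not tested.

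**Figure D4:**
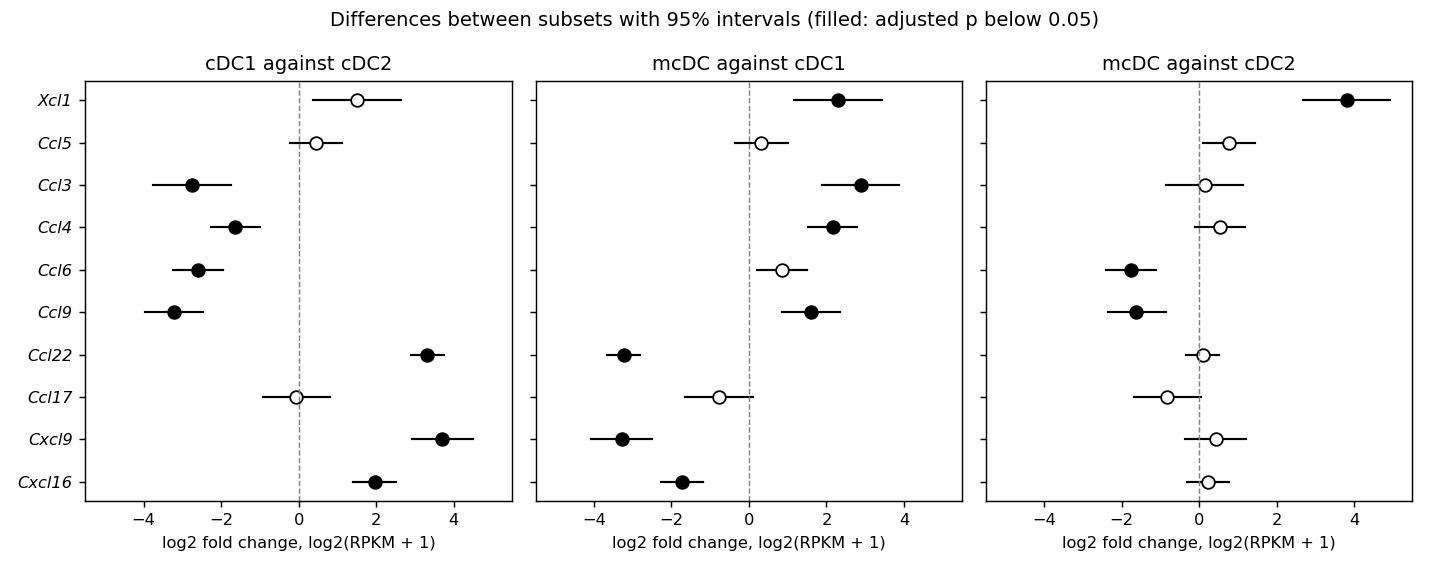
Points are log2 fold changes on the log2(RPKM + 1) scale (x axis) of the 10 ligands (y axis) in the 3 comparisons, with 95% intervals, and filled points passed an adjusted p of 0.05. cDC1 against cDC2 and mcDC against cDC1 each have 7 filled points, and mcDC against cDC2 has 3, Xcl1 to the right and Ccl6 and Ccl9 to the left.

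All ligand calls of the 3 comparisons had the same sign in each of the 3 title runs. Across the 9 libraries, which share the subset differences just given, the ligands fell into groups that rose and fell together. Pearson's r of log2(RPKM + 1) was 0.97 for Ccl22 and Cxcl9, 0.96 for Ccl22 and Cxcl16, 0.96 for Ccl3 and Ccl4 and 0.96 for Ccl6 and Ccl9. Ccl22 and Ccl3 ran opposite, at -0.92. Xcl1 was closest to Ccl5, at 0.67, and below 0.3 with every other ligand.

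Among the 11970 other genes tested, the pair most like each ligand was named by the same r over 9 libraries, as a description. For Xcl1 these were Gimap8 and Hmox1, both at 0.979, the latter encoding heme oxygenase and being on the red pulp macrophage list. Nearest to Ccl22 were Fndc7 (0.998) and Tlr11 (0.997), a receptor for microbial profilin and flagellin. Cxcl9 was nearest to Fuca1 (0.993), a lysosomal fucosidase, and Creg1 (0.991), and Cxcl16 to Wdr91 (0.988) and Lacc1 (0.985). Ccl3 was nearest to Mical1 (0.990) and Stat4 (0.990), a transcription factor downstream of IL-12, and Ccl4 to Lysmd2 (0.989) and Ptp4a3 (0.984). Ccl6 was nearest to Metrnl (0.994) and Ctss (0.986), the lysosomal protease cathepsin S, and Ccl9 to Fabp4 (0.993), a fatty acid carrier, and Mapk3 (0.988), the kinase ERK1. Ccl5 had looser matches, Tpm1 (0.911) and Eps8l2 (0.908). For Ccl17 they were Phyh (0.966) and Gsdmd (0.936), on few reads.

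The receptors of these ligands were read in the same libraries. Xcr1, the receptor of XCL1, stood at 131, 174 and 173 RPKM in cDC1, at 1.95, 2.81 and 2.58 in cDC2 and at 10.3, 17.3 and 19.4 in mcDC. No groups overlapped, with log2 fold changes of 5.54 for cDC1 against cDC2 (adjusted p = 9.4e-07), -3.30 for mcDC against cDC1 (3.4e-05) and 2.24 for mcDC against cDC2 (adjusted p = 0.0018). Ligand and receptor thus peaked in different subsets, Xcl1 in mcDC and Xcr1 in cDC1, and both were lowest in cDC2. Cxcr3, the receptor of CXCL9, was at 26.1 ± 7.19 RPKM in cDC1, 3.32 ± 0.538 in cDC2 and 18.2 ± 8.24 in mcDC. It was higher than in cDC2 in both cDC1 (2.62, adjusted p = 0.00039) and mcDC (2.06, adjusted p = 0.0088), and mcDC against cDC1 gave -0.56 (-1.29 to 0.16, adjusted p = 0.29).

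Ccr3, which binds CCL5 and the eotaxins, was higher in mcDC, at 6.86, 13.5 and 17.3 RPKM, than in cDC1 (1.58 to 2.30) or cDC2 (0.565 to 1.96). The log2 fold changes were 2.17 (adjusted p = 0.0025) and 2.66 (adjusted p = 0.0046). Ccr1 was at 3.79 ± 2.89, 4.87 ± 1.65 and 4.17 ± 1.76 RPKM in cDC1, cDC2 and mcDC. Cxcr6 was at 2.14 ± 0.745, 1.64 ± 0.675 and 1.55 ± 1.07 RPKM. Neither passed in any of the comparisons, with adjusted p from 0.54 to 0.90. Ccr4, the receptor of CCL22 and CCL17, was at 0 to 0.259 RPKM and was not tested.

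**Figure D5:**
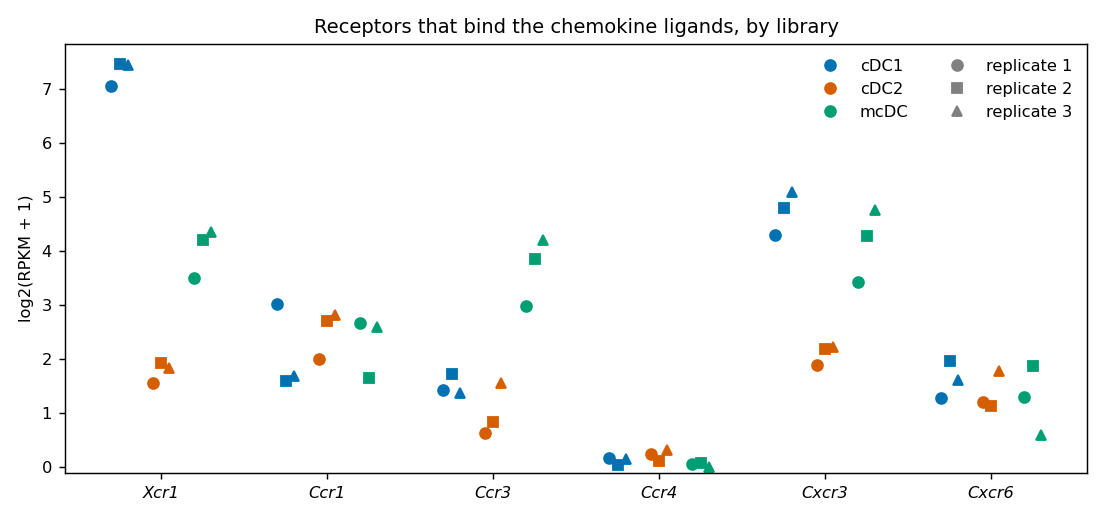
Points are the 9 libraries for 6 receptors (x axis) in log2(RPKM + 1) (y axis), coloured by subset and shaped by replicate. Xcr1 is highest in cDC1 and separates all 3 subsets, Cxcr3 is lowest in cDC2, Ccr3 is highest in mcDC, and Ccr4 lies near 0.

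Of 15 other chemokine receptors, 13 were in the table and 10 tested. Between cDC1 and cDC2, 2 were higher and 6 lower in cDC1, in mcDC against cDC1 6 were higher and 1 lower, and in mcDC against cDC2 limma called 0 higher and 1 lower (2 and 3 at an unadjusted p of 0.05, 0 and 1 with voom). Of all genes tested, 8.85% were higher and 10.7% lower in the first comparison, 9.53% and 5.88% in the second and 2.06% and 1.6% in the third. Their median log2 fold changes were -1.39, 1.01 and 0.10, beside -0.02, 0.09 and 0.06 over all genes. Of 30 other chemokine ligands, 13 were in the table and 8 tested. Cxcl10, another CXCR3 ligand induced by interferon, was the only one with a mean of at least 5 RPKM, at 6.60, 8.99 and 14 RPKM in cDC1, at 5.04, 6.07 and 9.64 in cDC2 and at 4.97, 4.41 and 5.65 in mcDC. It did not pass in any comparison (adjusted p = 0.35 for cDC1 against cDC2, 0.086 for mcDC against cDC1 and 0.57 for mcDC against cDC2). Under the alternatives the adjusted p ran from 0.036 to 0.78, 0.017 to 0.28 and 0.29 to 0.88, so the first 2 passed in some. The 2 that were higher in cDC1 than in cDC2 were named after their values were seen. They were Ccl19, the CCR7 ligand (4.80 ± 0.801 against 0.331 ± 0.0514 RPKM, log2 fold change 2.12, adjusted p = 0.00016), and Cx3cl1, the gene between Ccl22 and Ccl17 (2.35 ± 0.606 against 0.213 ± 0.163 RPKM, 1.46, adjusted p = 0.014, up to 0.064 under the alternatives). mcDC had less Ccl19 (-2.15, adjusted p = 0.00028) and less Ccl2 (-1.16, adjusted p = 0.025, up to 0.11 under the alternatives) than cDC1, the latter also named after its values were seen. Both rested on few reads in mcDC replicates 1, 2 and 3, with 7, 3 and 0 of Ccl19 and 10, 3 and 1 of Ccl2. The cDC1 libraries had 89, 76 and 56 reads of Ccl19 and 36, 23 and 17 of Ccl2. In mcDC against cDC2, 0 of the 8 passed in limma and 0 with voom, and 1 was lower at an unadjusted p of 0.05. The median log2 fold changes of the 8 were 0.23, -0.75 and 0.04.

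Genes that induce or process chemokines formed a last list, with 28 of 28 tested. In cDC1 against cDC2, 2 were higher and 6 lower, in mcDC against cDC1 3 were higher and 4 lower, and in mcDC against cDC2 1 was higher and 1 lower. Over all genes tested the shares were 8.85% and 10.7%, 9.53% and 5.88%, and 2.06% and 1.6%. The median log2 fold changes of this list were -0.20, 0.06 and -0.19, beside -0.02, 0.09 and 0.06 over all genes. Irf8, the transcription factor of cDC1 development, was at 727 ± 92.8 RPKM in cDC1, 76.3 ± 22.7 in cDC2 and 368 ± 147 in mcDC. It was higher than in cDC2 in both cDC1 (3.28, adjusted p = 0.00011) and mcDC (2.21, adjusted p = 0.0072). Irf1, which carries interferon-gamma signals, was at 119 ± 10.3 RPKM in cDC1, 71.0 ± 3.93 in cDC2 and 63.9 ± 5.89 in mcDC, and its cDC1 level was above cDC2 (0.74, adjusted p = 0.0014) and above mcDC (mcDC against cDC1 -0.89, adjusted p = 0.00081). Nfkb1, an NF-kB subunit, was lower in cDC1 than in cDC2 (89.7 ± 27.7 against 213 ± 12.9 RPKM, -1.28, adjusted p = 0.0039) and higher in mcDC than in cDC1 (178 ± 44.2 RPKM, 0.99, adjusted p = 0.02, up to 0.088 under the alternatives). Ifnar2, a chain of the type I interferon receptor, was lower in cDC1 than in cDC2 (-1.15, adjusted p = 5.7e-05) and higher in mcDC than in cDC1 (0.81, adjusted p = 0.00075). Tnfrsf1b, a receptor of tumour necrosis factor, was lower in cDC1 than in cDC2 (-1.25, adjusted p = 0.0025). Relb, an NF-kB subunit of mature dendritic cells, was higher in mcDC than in cDC1 (0.77, adjusted p = 0.028, up to 0.11 under the alternatives). Tnfrsf1a, the other tumour necrosis factor receptor, was lower in mcDC than in cDC2 (-0.82, adjusted p = 0.018, up to 0.086 under the alternatives). Mature dendritic cell markers, a list of 10 that includes Ccl22 and Ccl17, summed to 904 to 1104 RPKM in cDC1, 295 to 494 in cDC2 and 468 to 693 in mcDC. Their part in the ligand results was not tested.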

How the data were processed

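RNA of cDC1, cDC2 and mcDC sorted from mouse spleen was sequenced with a directional kit, per the labels' protocols. The authors deposited RPKM values in 1 table of 9 libraries and in 8 files of single libraries, which held the same values. mcDC replicate 3 was not among those 8, so its values could not be checked in this way. The unit is not named in the files and was read from the steps between values. The submitters' processing notes name the mouse build mm8. The sources used here do not give the aligner, counting tool or annotation. Whole reads were recovered for 100% of nonzero values within a tolerance of 0.001, and 5.14 to 12.4 M reads per library set the precision of low values.

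Groups came from the cell type label. Subsets were compared by limma 3.58.1 (R 4.3.3), fitted to log2(RPKM + 1) with a trend in the prior variance, in 1 fit of the 3 groups, over 11971 genes above 1 RPKM in at least 2 libraries, with 6 residual degrees of freedom. P-values were adjusted by Benjamini and Hochberg over all genes tested in a comparison and called at 0.05. Means ± SD are over 3 libraries. Alternatives were quantile and median-of-ratios scaling, a 0.1 pseudocount, dropping the filter, raising it to 5 RPKM, 2 groups fitted alone, no prior trend, the title run as a block, voom on recovered reads, each library left out, and, added after seeing the data, the block without mcDC replicate 3 and the mcDC mean without it.

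The members and gene lists were chosen with earlier results of these data known, and the fit was tested on simulated data. All 10 ligands and the receptors that bind them are named, except that 1 receptor is not reported here. From the other ligands, those with a mean of at least 5 RPKM in a group are named. From the inducers, the 4 called genes with the largest change in each comparison are named. The 2 genes with the highest correlation to each ligand are named. RefSeq GRCm38.p6 gave gene names, neighbours and promoters, matched by Entrez number for 14847 of 14862 genes and 10 of 10 ligands. Python 3.11.15 with numpy 2.4.6, pandas 2.3.3 and matplotlib 3.10.9 was used.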

Additional observations from a re-analysis of the deposited data

How the results depend on the processing

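Of 561 combinations of a ligand, a comparison and an alternative, 543 kept their side of the threshold, 10 passed where the reported fit did not, 8 no longer passed and 0 reversed a call. The sign of the rounded log2 fold change changed in 4, all uncalled when single libraries were left out. These were Ccl17 in cDC1 against cDC2 (-0.06 to 0.33) and, in mcDC against cDC2, Ccl22 (0.09 to -0.07) and Ccl3 (0.14 to -0.01 and -0.19). Cxcl9 in mcDC against cDC2 (0.42) rounded to -0.0 without mcDC replicate 3 and is not among them. The count of ligands called was 7 to 8, 5 to 8 and 2 to 3 in cDC1 against cDC2, mcDC against cDC1 and mcDC against cDC2 when single libraries were left out, and 7 to 8, 7 and 2 to 3 under the other alternatives. Counts over all genes moved more. For cDC1 against cDC2 (2344 genes called) the count was 3724 with the groups fitted alone and 1547 to 3467 with single libraries left out. For mcDC against cDC1 (1845) these were 1097 and 951 to 2601, and for mcDC against cDC2 (438) they were 243 and 158 to 896. Fewer libraries entered these fits. Voom on the recovered reads called 2612, 1840 and 398 genes. The median-of-ratios scaling moved the median of all genes in mcDC against cDC1 from 0.094 to -0.028 and turned no called ligand.

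Libraries of the same title run deviated together from their group means, with correlations of 0.098 to 0.46 over 9 pairs against -0.45 to 0.031 over the 18 others, and 9 of 9 libraries correlated best with their own run. Deviations from a group mean sum to 0 within the group, so positive values in the same run push the other pairs below 0. The 18 others are therefore not a separate baseline. The labels state no pairing and 1 pair fell under 0.1, so the joint deviation is a hint from the data. With the replicate block the counts were 2942, 2474 and 773, and with the block and without mcDC replicate 3, 4274, 3003 and 718. Among the 10 ligands the block changed 1 call, Xcl1 in cDC1 against cDC2 (adjusted p = 0.0007). Among the other ligands, receptors and inducers named above, it brought past the threshold Cxcl10 (0.017) and Irf8 (0.0024) in mcDC against cDC1. In mcDC against cDC2 these were Ccl2 (0.028) and Tnfrsf1b (0.017), and in cDC1 against cDC2 Relb (0.035) and Batf3 (0.04). Ccl17, at 0 to 11 reads per library, was not tested under the filter of 5 RPKM or in 2 of the fits that left out a library.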
